A study of Sus scrofa domesticus with 28 samples.

Results

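Pressed scar and sham-treated scar were compared at the mid phase of healing in the skin of red Duroc pigs. The samples labelled mid pressure (4 arrays) and mid sham (4 arrays) were taken, which are 8 of the 28 arrays of the series. The other arrays held control skin, early sham scar, and late pressure and late sham scar. Each mid pressure biopsy was matched to the mid sham biopsy of the same animal and the same pigmentation, labelled hyper or hypo, which gave 4 pairs. The series is about scars that differ in pigmentation, and the mid comparison asks what differed where a scar was pressed.

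The mid pressure group held hyper scar of animals 49 and 50 and hypo scar of animals 49 and 50, all from the right side. The mid sham group held the same combinations of animal and pigmentation, all from the left side. All biopsies, those of the other groups included, came from the same 2 juvenile castrated male pigs, so a p-value here measures the spread between biopsies of 2 animals and not between many animals. Side and treatment cannot be told apart in mid scar. The titles also carry a number whose unit was not given. It was 91 for the pressure hyper biopsies of both animals and for the pressure hypo biopsy of animal 49, and 99 for the pressure hypo biopsy of animal 50. Among the sham biopsies it was 91 for hyper of animal 49, a number above all of these for hyper of animal 50, 98 for hypo of animal 49 and 91 for hypo of animal 50. The hyper pair of animal 49 was the only one that shared the number. A code in the titles, a1 on hyper and a3 on hypo scar, was not explained either.

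A scar is laid down by fibroblasts, which secrete collagens and other matrix proteins and cross-link them with lysyl oxidases. In burn care, sustained pressure from garments is an established treatment of hypertrophic scars, and the red Duroc is used as a model because it forms thick scars. Skin colour depends on melanocytes, which make melanin with tyrosinase and related enzymes and pass it to keratinocytes of the epidermis.

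Each array measured the biopsy RNA in the red Cy5 channel against a universal pig reference RNA in the green Cy3 channel, without dye swap. Values below are log2 ratios of biopsy over reference, and a difference is pressure minus sham on the log2 scale. Per-array values are given in the order hyper of animal 49, hyper of animal 50, hypo of animal 49 and hypo of animal 50. Of 18769 features tested, 2606 carried a gene symbol, and the others were known by a transcript accession alone. Of 43603 probes on an array, 17513 to 21712 were well above background in the mid pressure biopsies and 17912 to 21329 in the mid sham biopsies, against 13709 to 24300 over the series. A list of 21 defining markers of skin, fibroblast, macrophage and skeletal muscle was checked. The 13 that could be tested, among them COL1A2, DCN, CD163 and ACTA1, were well above background on 8 of 8 mid arrays, and 0 of the 4 keratins that define keratinocytes (KRT5, KRT14, KRT1, KRT10) could be tested. The biopsies are mixed tissue, so fewer cells of a type and less RNA per cell cannot be told apart in any value below.

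2 kinds of biopsy stood apart. The pressure hyper biopsy of animal 49 had a mean deviation of 3.11 over 43 skeletal muscle genes from their own means over all 28 arrays, against -0.91 to 0.28 in the other 7 mid biopsies. The pressure hyper biopsy of animal 50 and the sham hypo biopsy of animal 49 had mean deviations of 1.41 and 1.56 over 24 macrophage and dendritic cell genes, against -0.64 to 0.12 in the other 6. Across features, the pressure hyper biopsy of animal 50 correlated with the sham hypo biopsy of animal 49 at a Pearson r of 0.93, above its own matched sham biopsy at 0.73. The pressure hypo biopsy of animal 49 correlated with the sham hypo biopsy of animal 50 at 0.94 and with its own matched sham biopsy at 0.77. Features are not independent replicates, and these correlations describe the arrays only.

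Over all 4 pairs, no feature was called. limma at a Benjamini-Hochberg adjusted p under 0.05 called 0 of 18769 features (0%), and the lowest adjusted p was 0.999. At an unadjusted p under 0.05 there were 852 features (4.54%), 291 of them higher in pressed scar (1.55%) and 561 lower (2.99%). The median difference over all features was -0.02, 44.7% of them were above 0, and the median standard error of a difference was 0.18. Leaving out single arrays gave 0 to 7 calls, the most (7, all lower in pressed scar) without the sham hyper biopsy of animal 49. Mid scar without the 2 biopsies high in macrophage genes gave 2 calls.

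The pressure and sham biopsies did not overlap for 200 features (1.07%), 78 with all 4 pressure values above all 4 sham values (0.416%) and 122 with all below (0.650%). The difference had the same sign in all 4 pairs for 959 features (5.11%), 426 higher (2.27%) and 533 lower (2.84%). Among features with a symbol, 13 were higher without overlap (0.499%) and 7 lower (0.269%). In the mid comparison every gene named below had a limma adjusted p of 0.999. An exact two-sided sign-flip test over 4 pairs cannot go below 0.125, the value each gene with 1 sign in all pairs had. These genes are therefore given as measured levels and not as changes.

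EDARADD, the adaptor of the ectodysplasin receptor that drives the formation of hair follicles and sweat glands, was lower in pressed scar without overlap. Its log2 ratios were 0.89, 0.82, 0.27 and 1.01 in pressure biopsies, against 2.21, 2.56, 1.58 and 1.08 in sham biopsies. The highest pressure value lay just under the lowest sham value, and both sham hyper biopsies stood above the others. EDARADD averaged 0.75 ± 0.33 in pressure and 1.86 ± 0.66 in sham scar (SD, n = 4 each), a difference of -1.11 with a standard error of 0.29. In late scar the difference was 0.29, and between the right and left sides of early sham scar it was -0.40.

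TFAP2B, a transcription factor of skin and neural crest, had log2 ratios of -0.25, -0.24, -0.52 and -0.01 in pressure biopsies, against 0.11, 0.40, 0.31 and 0.08 in sham biopsies. The groups were close but did not overlap, and the probe was well above background on 0 pressure arrays and 2 sham arrays. Set against the background limit on the normalised Cy5 signal alone, TFAP2B was at least 1.25-fold lower in pressed scar (adjusted p = 0.999). Each fold given as "at least" is on that Cy5 scale and can exceed the fold of the biopsy over reference ratios. MOS, a kinase best known from the oocyte, was well above background on only 1 of the 8 arrays, the sham hyper biopsy of animal 49 at 1.54, against -0.16 to 0.03 in the 4 pressure biopsies. It was at least 1.47-fold lower (adjusted p = 0.999), and the difference of -0.62 was -0.33 without that sham biopsy.

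ARID4A, a chromatin protein that binds the retinoblastoma protein, was measured by 8 probes that all gave the same direction. Its log2 ratios were 0.00, 0.03, -0.11 and 0.30 in pressure biopsies, against 0.62, 0.65, 0.37 and 0.62 in sham biopsies. All pressure values lay under all sham values, with a difference of -0.51 ± 0.17 (standard error). Also lower without overlap were MOBKL3, with a difference of -0.31, and CCL25, a chemokine of thymus and gut, with -0.21. Genes lower in all 4 pairs but with overlapping groups were PGRMC1 (-0.51), the creatine transporter SLC6A8 (-0.53), the antigen peptide transporter TAP1 (-0.62), the ubiquitin-conjugating enzyme UBE2W (-0.30), the histone demethylase KDM2A (-0.31) and ID4 (-0.57), an inhibitor of helix-loop-helix transcription factors.

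IGF1, the insulin-like growth factor made by fibroblasts among other cells, was higher without overlap. Its log2 ratios were 0.88, 1.06, 1.34 and 0.78 in pressure biopsies, against 0.00, 0.47, 0.74 and 0.64 in sham biopsies. The lowest pressure value was just above the highest sham value. IGF1 averaged 1.01 ± 0.25 in pressure and 0.46 ± 0.32 in sham scar (SD, n = 4 each), a difference of 0.55 ± 0.19 (standard error, limma adjusted p = 0.999). In late scar its difference was -0.11.

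TNMD, tenomodulin of tendon and ligament cells, was well above background on all 4 pressure arrays and on 0 sham arrays. Its log2 ratios were 0.47, 0.67, 1.32 and 1.03 in pressure biopsies, against -0.16, -0.29, -0.08 and 0.13 in sham biopsies. Both hypo pressure biopsies stood highest, and TNMD was at least 1.80-fold higher in pressed scar (adjusted p = 0.999). WNT2B, a secreted Wnt ligand, had log2 ratios of -0.50, -0.50, -0.23 and -0.36 in pressure biopsies, against -1.45, -1.07, -1.18 and -0.79 in sham biopsies. The pressure values kept to a narrow range above all sham values, with a difference of 0.72 ± 0.27 (standard error).

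For PKIA, an inhibitor of protein kinase A measured by 10 probes of the same direction, the distance rested partly on 1 biopsy. Its log2 ratios were 2.02, -0.17, 0.09 and -0.10 in pressure biopsies, against -1.35, -0.63, -0.94 and -0.47 in sham biopsies. The difference was 1.31 ± 0.40 (standard error) and 0.76 without the pressure hyper biopsy of animal 49, the one high in muscle genes. MYF6, a transcription factor of skeletal muscle, had log2 ratios of 6.82, -0.92, 1.83 and -0.71 in pressure biopsies, against -1.06, -1.34, -1.19 and -1.13 in sham biopsies. It was well above background on 2 pressure arrays and 0 sham arrays and at least 6.40-fold higher (adjusted p = 0.999), with a difference of 2.94, or 1.20 without the same muscle-rich biopsy. The remaining genes higher without overlap among the 10 of largest difference were FOLH1B (0.87), the peroxisome assembly factor PEX3 (0.44), the fatty acid oxidation enzyme ECI2 (0.43), UQCC (0.42), which helps assemble respiratory complex III, and HSDL2 (0.33).

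SFRP4, a secreted Wnt antagonist, was higher in all 4 pairs, but its groups overlapped. Its log2 ratios were 2.99, 3.89, 3.64 and 3.34 in pressure biopsies, against -0.52, 1.33, 3.45 and 2.48 in sham biopsies. Pressure biopsies were uniformly high, and the sham hyper biopsies were the low ones. The difference was 1.78 ± 0.61 (standard error, limma adjusted p = 0.999). FASN, the fatty acid synthase, differed by 0.72, EGF by 1.12, the ADP-ribosyltransferase ART4 by 0.36 and CLSTN3 by 0.67, each higher in pressed scar in all 4 pairs.

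**Figure D1:**
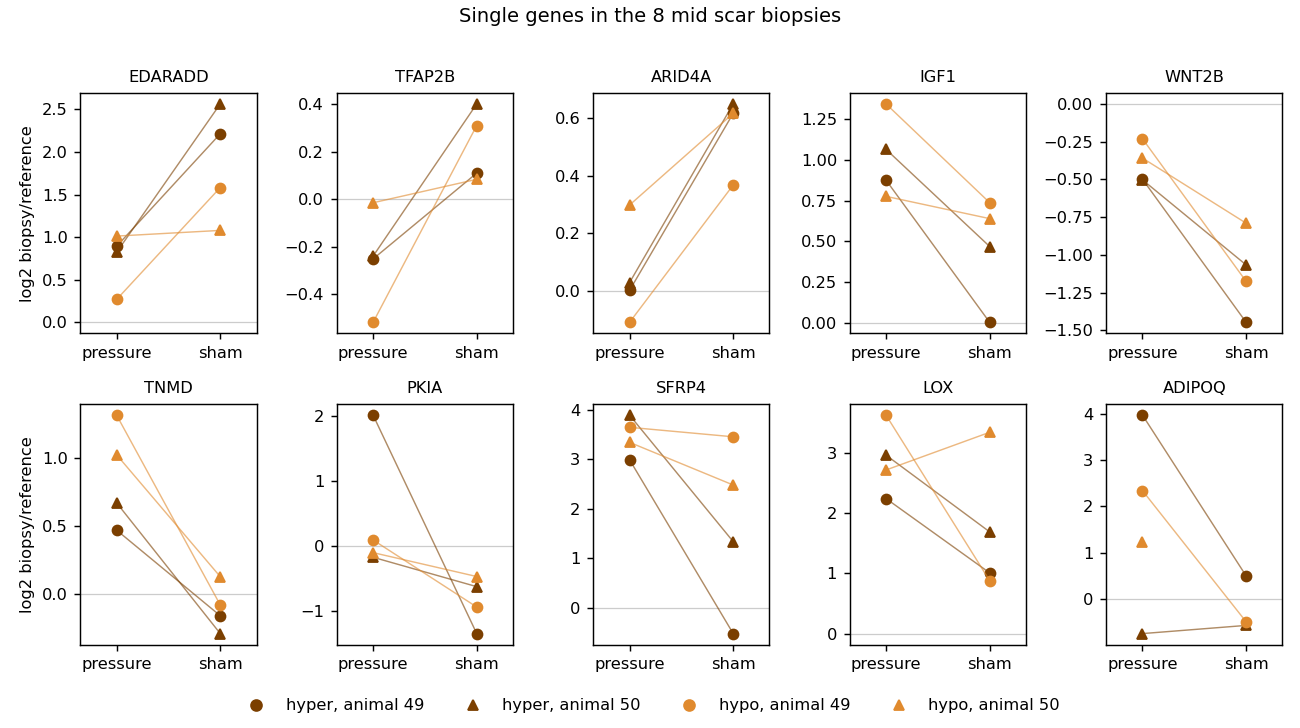
Log2 ratio of biopsy over reference RNA for 10 genes in the 8 mid scar biopsies, pressure on the left and sham on the right of each panel, with a line joining the biopsies of the same animal and pigmentation. Colour gives the pigmentation and marker shape the animal. All 4 lines run upward from pressure to sham for EDARADD, TFAP2B and ARID4A, and downward for IGF1, WNT2B, TNMD, PKIA and SFRP4, while LOX and ADIPOQ have groups that overlap.

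The plot of single genes shows how small some of these gaps were beside the spread of the biopsies. For EDARADD the hypo pair of animal 50 differed least, and for SFRP4 the hypo pair of animal 49.

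Genes of the scar matrix were mostly higher in pressed scar. Of 18 measured genes of the collagen and matrix list, 17 had a difference above 0, against 44.7% of all features and 48.2% of those with a symbol, and the median was 0.72, against -0.02 over all features. None was called (0 of 18), and 1 had an unadjusted p under 0.05, LOX, the enzyme that cross-links collagen. LOX had log2 ratios of 2.24, 2.96, 3.62 and 2.71 in pressure biopsies, against 1.01, 1.69, 0.88 and 3.34 in sham biopsies. The groups overlapped through the sham hypo biopsy of animal 50. The difference of LOX was 1.16 ± 0.50 (standard error, limma adjusted p = 0.999).

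COL1A2, a chain of type I collagen and chosen after its values were seen, had log2 ratios of 4.37, 5.15, 5.09 and 5.13 in pressure biopsies, against 3.70, 3.56, 2.82 and 5.11 in sham biopsies. POSTN, the matrix protein periostin, had log2 ratios of 6.16, 5.94, 5.79 and 6.92 in pressure biopsies, against 5.22, 5.99, 4.06 and 5.97 in sham biopsies. For COL1A2 3 sham biopsies were lower than every pressure biopsy, and for POSTN the sham biopsies of animal 50 reached into the pressure range. The differences were 1.14 ± 0.76 for COL1A2 and 0.89 ± 0.51 for POSTN (standard errors). The proteoglycans DCN (decorin) and VCAN (versican) differed by 0.89 ± 0.47 and 0.83 ± 0.47.

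The pairs did not share the matrix difference evenly. Averaged over the 18 genes, pressure minus sham was 0.50 in the hyper pair of animal 49, 0.62 in the hyper pair of animal 50, 1.75 in the hypo pair of animal 49 and -0.43 in the hypo pair of animal 50. On the only slide that held a matched pair, that of the hyper biopsies of animal 50, the difference was therefore 0.62. The 2 pressure biopsies on another slide exceeded the sham hypo biopsy of animal 49 beside them by 0.78 on average. The list median of 0.72 became 0.38 without the sham hypo biopsy of animal 49, 0.31 without the pressure hypo biopsy of animal 49 and 0.18 without the 2 biopsies high in macrophage genes. It was -0.11 in late scar, where 6 of 18 genes were higher under pressure, beside 51.3% of all features, and 0.19 between right and left early sham scar. Whether the macrophage-rich biopsies or the side had a part in the matrix difference was not tested beyond these values.

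Genes of fibroblasts other than matrix stood similarly. Of 15 measured, 12 were higher in pressed scar with a median of 0.45, 0 were called and 4 had an unadjusted p under 0.05, namely IGFBP5, SFRP4, IGF1 and IGFBP6. IGFBP5, which binds insulin-like growth factors in the matrix, had log2 ratios of 1.99, 0.41, 1.42 and 1.21 in pressure biopsies, against -0.29, 0.53, -0.60 and 0.70 in sham biopsies. It was higher in 3 pairs and slightly lower in the hyper pair of animal 50, with a difference of 1.18 ± 0.40 (standard error). IGFBP6, a related binding protein, differed by 0.94 ± 0.43. The list median was 0.25 without the pressure hyper biopsy of animal 50, 0.07 without the pressure hypo biopsy of animal 49 and 0.16 without the background cap.

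Matrix-degrading enzymes and their inhibitors did not move one way. Of 17 measured, 9 were higher and 8 lower in pressed scar, with a median of 0.01. Over the hyper pairs together 14 were higher (median 0.54) and over the hypo pairs together 11 were lower (median -0.45). Among all features 57.4% lay below 0 in hyper scar and 59.2% above 0 in hypo scar. Averaged over the list, the pairs differed by -0.19, 1.23, -0.68 and -0.33, so the hyper pair of animal 49 did not share the rise. Leaving out the pressure hyper biopsy of animal 49 but not its matched sham biopsy gave a list median of 0.46. Without that whole pair the median was 0.05. It was -0.26 without the pressure hyper biopsy of animal 50 and -0.29 without the 2 biopsies high in macrophage genes. MMP2, a gelatinase, differed by 0.45 ± 0.38, and TIMP1, an inhibitor of matrix metalloproteinases, by 0.31 ± 0.33. Of 15 genes of the TGF-beta pathway, 8 were higher and 7 lower, with a median of 0.02. INHBA, the activin A subunit, differed by -0.38 ± 0.17, with 1 of its 2 probes giving that direction, and the receptor BMPR2 by -0.33 ± 0.15. The ligand BMP7 differed by -0.36 ± 0.26 and the activin inhibitor FST (follistatin) by 0.28 ± 0.21. The FST difference was -0.01 without the pressure hyper biopsy of animal 49.

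Genes of mechanical signalling, including targets of the force-responsive regulator YAP, showed no common direction. Of 9 measured, 4 were higher and 5 lower with a median of -0.05. ANKRD1, a YAP target that is also abundant in stretched muscle, had log2 ratios of 1.30, -6.10, -2.87 and -5.24 in pressure biopsies, against -4.57, -4.63, -5.74 and -5.30 in sham biopsies. Its difference of 1.83 was 0.10 without the muscle-rich pressure hyper biopsy of animal 49. TEAD1, the DNA-binding partner of YAP, differed by 0.33 ± 0.20. Of 7 integrins, the receptors that tie cells to the matrix, 2 were higher and 5 lower with a median of -0.11, and the beta-1 subunit ITGB1 differed by 0.21 ± 0.21. Of 11 myofibroblast and smooth muscle genes, 7 were higher, with a median of 0.04. The myosin light chain kinase MYLK differed by -0.24 and calponin CNN1 by 0.48, with CNN1 fitted without the pressure hyper biopsy of animal 50, whose value was missing.

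Stress and oxygen-related genes gave 2 single genes of note. DDIT4, an inhibitor of mTOR that hypoxia and stress induce, had log2 ratios of -0.63, -0.31, -0.48 and 0.03 in pressure biopsies, against -0.02, -1.89, -2.16 and -1.93 in sham biopsies. Pressure was higher by over 1.5 in 3 pairs and lower in the hyper pair of animal 49, and the difference was 1.15 ± 0.36 (standard error). ALDOC, a glycolytic aldolase, differed by 1.39 ± 0.66. Of the 14 hypoxia and glycolysis genes measured, 10 were higher with a median of 0.12. Of 20 immediate early and heat shock genes, 4 were higher and 16 lower with a median of -0.23, with FOS at -0.76 ± 0.63, KLF6 at -0.58 ± 0.35 and the heat shock protein HSPB1 at -0.48 ± 0.24. That median was -0.11 without the pressure hypo biopsy of animal 49. The right side of early sham scar also differed from the left by a median of -0.31 for that list, and the part of the side was not tested further.

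Pigment genes differed little in size and mostly lay below 0. Of 17 melanocyte and pigment genes, 3 were higher and 14 lower with a median of -0.12, beside 55.3% of all features below 0, and none was called. Averaged over the list, the pairs differed by -0.08, -0.06, -0.24 and -0.12, all below 0. The list median was -0.03 without the pressure hyper biopsy of animal 49, -0.06 without the sham hyper biopsy of animal 50, -0.07 without the sham hypo biopsy of animal 49, -0.24 without the sham hypo biopsy of animal 50, -0.06 without the background cap, -0.25 in the authors' value table and -0.21 with the stricter filter. Without the whole hyper pair of animal 49 the list median was -0.13. In hypo scar 8 of 17 were higher and 9 lower, and right minus left early scar had a median of -0.08. DCT, dopachrome tautomerase of melanin synthesis, had log2 ratios of 1.55, 0.40, 0.90 and 1.63 in pressure biopsies, against 1.94, 2.10, 0.65 and 0.92 in sham biopsies. Pressure was lower in both hyper pairs and higher in both hypo pairs, with a difference of -0.28 ± 0.25 over all 4. TYR, tyrosinase itself, differed by -0.23 ± 0.24 and TYRP1 by -0.30 ± 0.32. Both were chosen after their values were seen, and each was well above background on few of the 8 arrays, 2 for TYR and 3 for TYRP1. Both were above 0 without the cap on the local background, at 0.07 for TYR and 0.13 for TYRP1. HPS1, which serves in the making of melanosomes, differed by -0.27 ± 0.13, and MLPH (melanophilin), which carries melanosomes along actin, by -0.25 ± 0.17. OCA2, the melanosomal transporter, was not well above background on any of the 8 arrays.

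Markers of tissue under or beside the scar depended in part on single biopsies. Of 43 skeletal muscle genes, 38 were higher in pressed scar with a median of 0.83, which was -0.10 without the pressure hyper biopsy of animal 49 and 1.83 without that of animal 50. Without the whole hyper pair of animal 49 it was 0.01. Averaged over the list, the pairs differed by 3.16, -0.99, 1.19 and -0.05. In hypo scar, which does not use the hyper biopsies, 40 of 43 were higher with a median of 0.56, beside 59.2% of all features. CASQ1, the calcium-binding protein of the muscle reticulum, had log2 ratios of 4.45, 0.27, 0.15 and -0.45 in pressure biopsies, against -0.47, -1.04, -0.41 and -0.55 in sham biopsies. It was well above background on 3 pressure arrays and 0 sham arrays, and at least 3.34-fold higher on the Cy5 scale (adjusted p = 0.999). Its difference in log2 ratio of 1.72 was 0.78 without the pressure hyper biopsy of animal 49. CA3, carbonic anhydrase of muscle and fat, differed by 1.06 ± 0.50. MYH7 and MYOG of the same list went the other way, at -0.85 and -0.31. The muscle list was also high in the late pressure hyper biopsy of animal 49, at a mean deviation of 3.83, and in the early sham hypo biopsy of the left side of animal 50, at 1.70.

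Of 23 adipocyte genes, 18 were higher in pressed scar with a median of 0.66, or 0.20 without the pressure hyper biopsy of animal 49, 0.39 without the sham hypo biopsy of animal 49, 0.43 without the pressure hypo biopsy of animal 49 and 0.29 without the background cap. Averaged over the list, the pairs differed by 1.43, 0.04, 0.54 and 0.44. ADIPOQ, the fat hormone adiponectin, had log2 ratios of 3.97, -0.75, 2.34 and 1.22 in pressure biopsies, against 0.49, -0.58 and -0.50 in sham biopsies, the value of the sham hypo biopsy of animal 50 being missing. Its difference, fitted without that value, was 2.39 ± 0.77 (standard error, limma adjusted p = 0.999). FABP4, the fatty acid carrier of adipocytes, had log2 ratios of 5.22, 2.25, 2.83 and 2.52 in pressure biopsies, against 1.53, 0.67, 2.92 and -0.19 in sham biopsies. The groups overlapped through the sham hypo biopsy of animal 49, and the difference was 1.97 ± 0.80. CIDEC, a lipid droplet protein, was well above background on 3 pressure arrays and 0 sham arrays and at least 2.42-fold higher on the Cy5 scale (adjusted p = 0.999). NNAT differed by 0.66, and PPARG, the regulator of fat cell formation, by 1.05 ± 0.47.

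**Figure D2:**
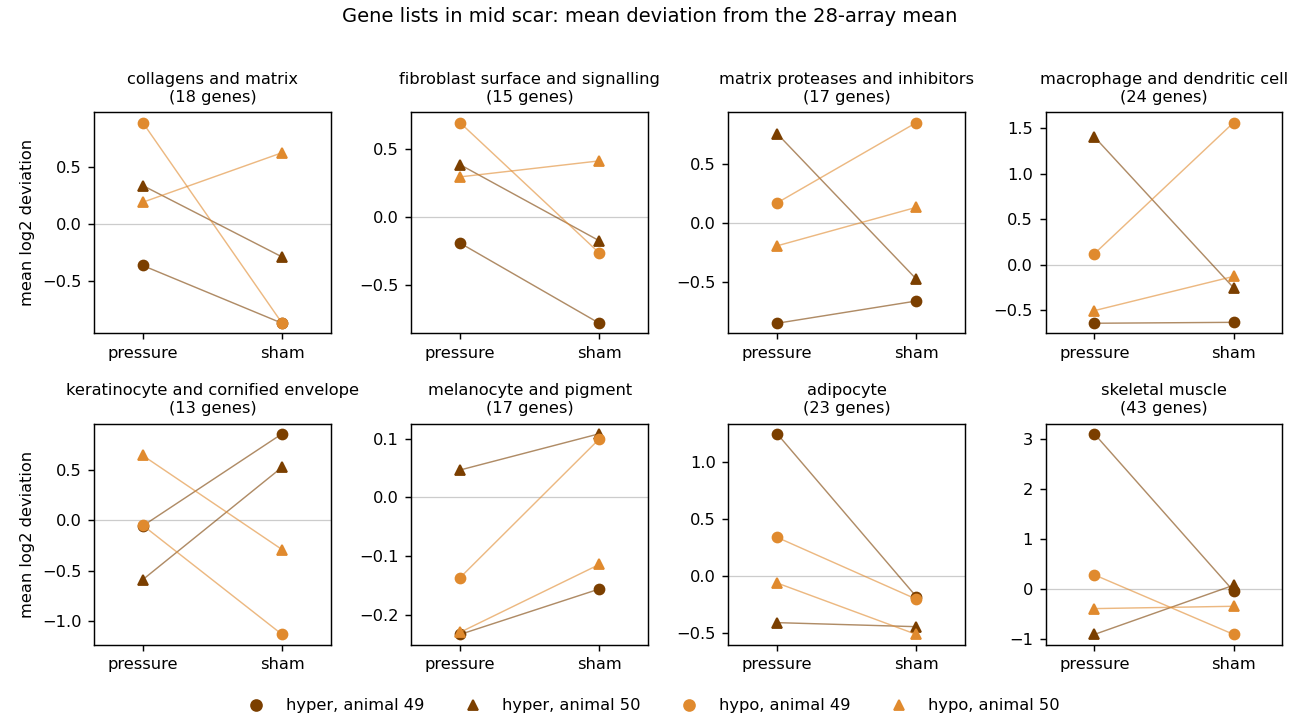
Mean deviation of 8 gene lists from each gene's own mean over all 28 arrays (log2) in the 8 mid biopsies, pressure on the left and sham on the right, with lines joining the biopsies of the same animal and pigmentation. The 2 hyper lines and the 2 hypo lines of the keratinocyte list run in opposite directions. In the skeletal muscle panel 1 pressure biopsy stands highest at 3.11, and the hypo line of animal 49 also falls from pressure to sham. In the macrophage panel 1 pressure biopsy at 1.41 and 1 sham biopsy at 1.56 stand above the others.

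Immune cell genes had no common direction over the 4 pairs. Of 24 macrophage and dendritic cell genes, 9 were higher and 15 lower, with a median of -0.05. The plot of list means shows that a pressure biopsy and a sham biopsy were each high. The hyper median was 0.63 with 22 of 24 genes higher, and the hypo median -0.68 with 1 of 24 higher. Averaged over the list, the pairs differed by -0.01, 1.66, -1.44 and -0.38. CD163, a macrophage scavenger receptor, had log2 ratios of -2.67, 0.48, -0.94 and -1.98 in pressure biopsies, against -3.55, -2.48, -0.68 and -1.01 in sham biopsies. SPP1, the macrophage and matrix protein osteopontin, chosen after its values were seen, was at -2.26, 3.96, -0.92 and -2.47 in pressure biopsies, against -2.10, -2.11, 4.58 and -1.27 in sham biopsies. The high SPP1 values fell on the same 2 biopsies as the high macrophage list. Lysosome genes followed them, with list means of the pairs differing by -0.25, 1.71, -1.33 and -0.58. Over the 2 hyper pairs together 20 of 21 were higher (median 0.75), although the list mean was lower in the pair of animal 49. Over the hypo pairs together 0 of 21 were higher (median -0.80). Among all features 57.4% lay below 0 in hyper scar and 59.2% above 0 in hypo scar.

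Of 28 cytokine and chemokine genes, 13 were higher and 15 lower. CCL20, which draws dendritic and T cells, stood at 2.68 in the pressure hypo biopsy of animal 49, against -0.50 to -0.09 in the other pressure biopsies and -0.39 to -0.19 in sham biopsies. CXCL12, a fibroblast chemokine, differed by 0.75 ± 0.35, and CXCL14, a chemokine of skin epithelium, by -0.46 ± 0.28. IL6 differed by -0.21 ± 0.31 and the prostaglandin synthase PTGS2 by -0.35 ± 0.45. Of 34 interferon response genes, 18 were higher with a median of 0.04, and PML of that list differed by -0.40 ± 0.18. Of 14 T and NK cell genes, 8 were higher, and the cytotoxic protease GZMB differed by -0.34 ± 0.22. Of 17 endothelial genes, 13 were higher with a median of 0.11, PECAM1 at 0.23 ± 0.33, ANGPT2 at 0.17 ± 0.24 and SELE at -0.53 ± 0.58. Of 12 cell cycle genes, 4 were higher, among them CCNB2, the mitotic cyclin, at 0.44 ± 0.18.

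All calls made in mid scar lay in hyper scar or in the difference between hyper and hypo scar. Most called features, and some lists, had opposite signs in the hyper and the hypo pairs, while the matrix, fibroblast, adipocyte and skeletal muscle medians were above 0 in both. In hyper scar limma called 315 features at an adjusted p under 0.05 (1.68%), 21 higher in pressed scar (0.112%) and 294 lower (1.57%), with 3384 features at an unadjusted p under 0.05 (18.0%). In hypo scar it called 0 (0%), with 812 at an unadjusted p under 0.05 (4.33%). The difference between the pressure effects of hyper and hypo scar was tested itself and gave 215 calls (1.15%), 12 higher (0.0639%) and 203 lower (1.08%) in hyper than in hypo, with 3571 at an unadjusted p under 0.05 (19.0%). Of these, 160 were also among the 315, which is 74.4% of the 215 and 50.8% of the 315. The separate hyper and hypo comparisons, and the hyper genes named below other than those of the hyper minus hypo test, were chosen after the values were seen. Each effect here rests on 2 pressure and 2 sham biopsies, with the spread estimated over all 28 arrays.

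These calls depended on single biopsies and on the model. With a block for each pair, with the 8 mid arrays alone, or without the cap on the local background, 0 of the hyper calls and 0 of the interaction calls were left. The authors' value table gave 46 hyper calls, 16 higher and 30 lower, and 0 interaction calls. The hyper count was 6 without the pressure hyper biopsy of animal 50 and 1305 without that of animal 49, and 24 and 10 without the sham hyper biopsies of animals 49 and 50. Without the 2 biopsies high in macrophage genes it was 7, and the interaction count 0. The interaction count ran from 0 to 1819 when single mid biopsies were left out. Both hyper biopsies of animal 50 lay on 1 slide, and there 314 of the 314 calls measured had the direction of the call, which the choice of the features fixes in part.

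The 294 features called lower in hyper scar were mostly highest in the sham hyper biopsies. Of the 291 measured on all mid arrays, 284 had both sham hyper biopsies above all 6 other mid biopsies. The call fixes in part that the sham hyper values exceed the pressure hyper values, and the share over all features was not counted. The median log2 ratio of the 294 was -1.41, -1.98, -1.43 and -1.02 in pressure biopsies, against -0.50, -0.27, -1.81 and -1.69 in sham biopsies. The sham hyper biopsies of both animals stood closest to 0, and the pressure hyper biopsies lay within the range of the 4 hypo biopsies or just below it. Control skin ranged from -2.34 to -1.68 and late hypo scar from -0.66 to -0.16. The 294 fell by a median of 1.29 in hyper scar, and in hypo scar their median difference was 0.42. Of all 315, 297 had the opposite sign in hypo scar. Among all features 57.4% lay below 0 in hyper scar and 59.2% above 0 in hypo scar. The share of all features with opposite signs was not counted.

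**Figure D3:**
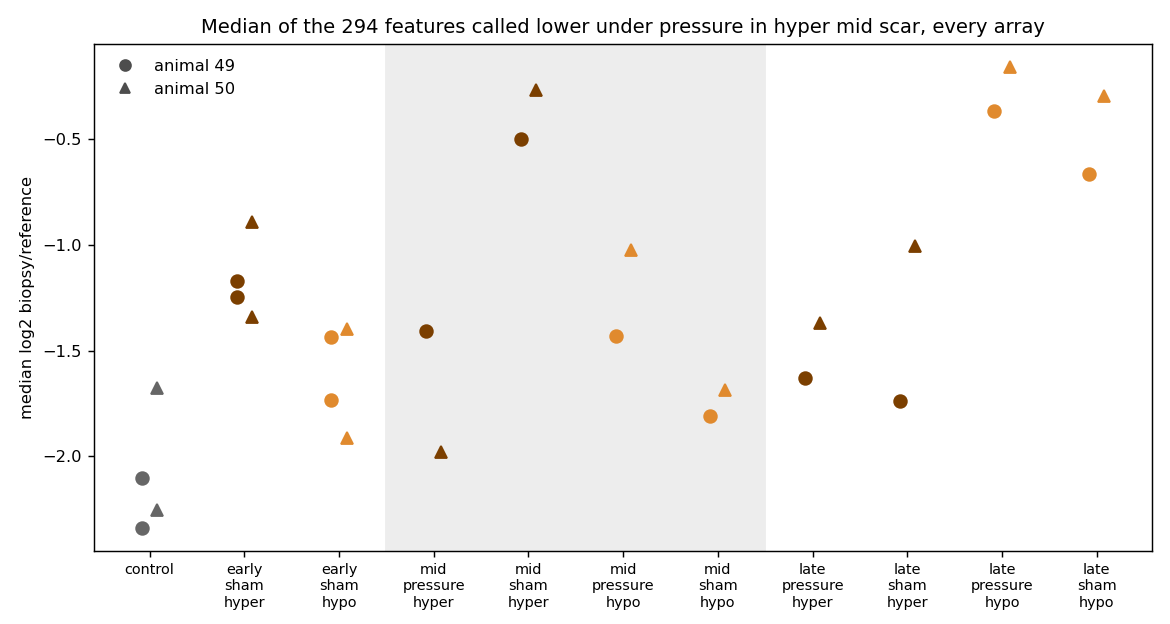
Median log2 ratio of biopsy over reference for the 294 features called lower under pressure in hyper mid scar, in all 28 biopsies by group, with the mid groups shaded and each pressure group left of its sham group. The sham hyper biopsies at -0.50 and -0.27 stand above the 6 other mid biopsies, control skin lies from -2.34 to -1.68, and late hypo scar from -0.66 to -0.16. Colour marks hyper (dark) and hypo (light) scar, and marker shape the animal.

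Most of these features were lower in the biopsies than in the reference RNA. Universal reference RNAs are usually pooled from several organs, and the make-up of this one was not given in the sources used here. The median log2 ratio of the 294 was -0.50 and -0.27 even in the sham hyper biopsies. Over all features the median was -0.02 and 0.02 in the pressure hyper and 0.01 and 0.01 in the sham hyper biopsies. In the pressure hyper biopsies 274 of the 294 had a mean log2 ratio below 0, which the call fixes in part. Among those with a symbol were PGA5 (-2.33), the stomach enzyme precursor pepsinogen A, the gastric proton pump subunit ATP4B (-1.60), the pancreatic phospholipase PLA2G1B (-1.96), the liver proteins APCS (-2.25) and F2 (-1.76), which are serum amyloid P and prothrombin, the sperm protamine PRM2 (-1.22) and the heart proteins TNNI3 (-1.94) and MYH7 (-1.92), the last also a slow skeletal muscle myosin. The F2 log2 ratios were -4.92 and -5.34 in pressure hyper biopsies, against -3.34 and -3.40 in sham hyper biopsies. The values lay further from 0 in the pressure biopsies of both animals. Over the 502 features whose mean ratio over all arrays was below -2, the median was -2.66 and -3.38 in the pressure hyper biopsies, against -2.41 and -2.21 in the sham hyper biopsies. The standard deviation of the ratios over all features was 0.90 and 1.03 in pressure hyper and 0.87 and 0.80 in sham hyper biopsies. The part that the smaller standard deviation of the sham hyper arrays had in the calls was not tested.

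Of the 36 hyper calls with a symbol, 33 fell, which is 1.27% of features with a symbol, and 3 rose (0.115%). EPCAM, an epithelial adhesion molecule measured by 16 probes of the same direction, had log2 ratios of -2.95 and -4.20 in pressure hyper biopsies, against -1.75 and -1.12 in sham hyper biopsies. It fell by 2.14 on the log2 scale (standard error 0.49, limma adjusted p = 0.038), and its difference in hypo scar was 0.46. MARVELD3, a tight junction protein, had log2 ratios of -1.14 and -1.68 in pressure hyper biopsies, against 0.28 and -0.13 in sham hyper biopsies, and fell by 1.48 (adjusted p = 0.031). FUT1, a fucosyltransferase of epithelial blood group antigens, fell by 1.03 (adjusted p = 0.024) and the membrane proteolipid MALL by 1.29 (adjusted p = 0.038).

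DEFB1, the antimicrobial beta-defensin of epithelium, had log2 ratios of -3.12 and -3.17 in pressure hyper biopsies, against -1.66 and -1.52 in sham hyper biopsies. The 2 animals were nearly alike within each group, and DEFB1 fell by 1.56 (standard error 0.23, limma adjusted p = 0.011), although only 1 of its 2 probes gave that direction. MUT, methylmalonyl-CoA mutase of mitochondria, fell by 1.87 (adjusted p = 0.020), again with 1 of 2 probes. Further falls were CNPY3, a chaperone of Toll-like receptors, by 1.56 (adjusted p = 0.029), BTG3, an inhibitor of proliferation, by 1.04 (adjusted p = 0.031), DGCR8 of microRNA processing by 1.14 (adjusted p = 0.033), the transcriptional partner LMO1 by 2.16 (adjusted p = 0.046) and the kinesin KIF21A by 1.40 (adjusted p = 0.049). The integrin ITGB3 fell by 1.26 (adjusted p = 0.049), the muscle regulator MYOG by 0.97 (adjusted p = 0.044) and MOS by 1.06 (adjusted p = 0.041). MOS was not well above background on either pressure hyper array and was at least 1.97-fold lower.

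Among the genes that rose were GADD45A and ARL6IP5. GADD45A, induced by DNA damage and growth arrest, had log2 ratios of 1.38 and 0.66 in pressure hyper biopsies, against -0.71 and -0.45 in sham hyper biopsies, and rose by 1.60 (adjusted p = 0.038). ARL6IP5, a protein of the endoplasmic reticulum, rose by 1.21 (adjusted p = 0.038).

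The keratinocyte list had opposite signs in hyper and hypo scar. KRT5, KRT14, KRT1 and KRT10, which define keratinocytes, could not be tested, so the list is not a measure of keratinocytes alone. Of 13 keratinocyte and cornified envelope genes, 12 were lower in the hyper pairs with a median of -1.34, beside 57.4% of all features, and 12 were higher in the hypo pairs with a median of 0.84, beside 59.2% of all features. EPCAM was the only one of the list that was called. Averaged over the list, the pairs differed by -0.91, -1.11, 1.08 and 0.93. KRT8, a keratin of simple epithelium, had log2 ratios of -2.77 and -3.47 in pressure hyper biopsies, against -1.84 and -1.42 in sham hyper biopsies, a difference of -1.49 ± 0.48 (limma adjusted p = 0.104). CDH1, E-cadherin, differed by -1.39 in hyper scar (limma adjusted p = 0.161) and was higher in both hypo pairs. The epithelial splicing factor ESRP1 differed by -1.82 in hyper scar (limma adjusted p = 0.194) and by 1.22 in hypo scar, and both genes were chosen after their values were seen. EDARADD differed by -1.53 in hyper scar (adjusted p = 0.058) and by -0.69 in hypo scar, the same direction in both.

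Gland genes stood apart in 1 sham biopsy. Of 8 sweat and apocrine gland genes, 8 were lower in the hyper pairs with a median of -1.06, beside 57.4% of all features, and none was called. LTF, the secreted iron-binding protein lactoferrin, stood at 3.42 in the sham hyper biopsy of animal 49, against -0.49 to -0.03 in the 4 pressure biopsies and -0.48 to -0.13 in the other sham biopsies. Its hyper difference was -1.82 (adjusted p = 0.215) and 0.01 without that biopsy. AQP5, the water channel of sweat gland cells, differed by -1.31 in hyper scar (adjusted p = 0.054), with the value of the sham hyper biopsy of animal 50 missing. All 6 hair follicle genes measured had differences below 0 over the 4 pairs, with a median of -0.14 and LHX2, a factor of follicle stem cells, at -0.22 ± 0.18. In hypo scar 4 of the 6 were higher. The list median was -0.03 without the pressure hyper biopsy of animal 50, -0.07 without the sham hyper biopsy of animal 49 and nearly 0 without the sham hypo biopsy of animal 50. Of 35 cytosolic ribosomal protein genes, 32 were lower in the hyper pairs (median -0.32), beside 57.4% of all features. In the hypo pairs 33 were higher (median 0.18), beside 59.2% of all features, and none of the 35 was called.

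**Figure D4:**
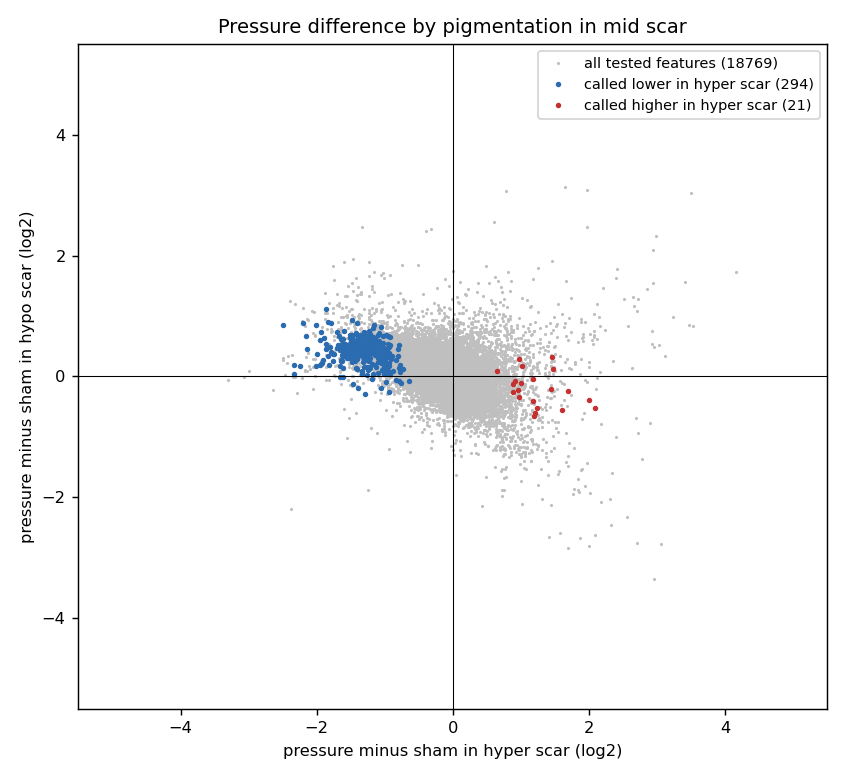
Pressure minus sham (log2) in hyper scar on the x axis and in hypo scar on the y axis for 18769 tested features, with 1 feature outside the plotted range. The 294 features called lower in hyper scar lie to the left and mostly above 0 in hypo scar, and the 21 called higher lie to the right and mostly below 0.

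The test of the difference between hyper and hypo scar named 16 features with a symbol. The one of lowest p, PHGDH, rests on a single sham hypo biopsy, which is assumed to vary like the other groups. PHGDH, the first enzyme of serine synthesis, had log2 ratios of -0.73 and -0.52 in pressure hyper and 0.23 and -0.10 in pressure hypo biopsies, against 0.48 and 0.38 in sham hyper and -1.59 in the only sham hypo biopsy with a value. Its effect was -1.05 in hyper and 1.68 in hypo scar, and the difference of -2.73 was called (limma adjusted p = 0.030, fitted without the missing value). The other lowest p-values belonged to DEFB1 (-1.90), MUT (-2.40), MALL (-1.97) and KIF21A (-2.29) among the negative ones. ARL6IP5 (1.80), VPS37B (1.89) of endosomal sorting, ARMT1 (1.34), GADD45A (2.16) and GFPT1 (1.08), which opens hexosamine synthesis, led the positive ones. Their adjusted p-values were 0.038 to 0.043. The plot of hyper against hypo differences shows the opposite signs of the called features in the 2 kinds of scar.

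Late scar gave no called features either, 0 of 18769 (0%) by limma, with 1059 at an unadjusted p under 0.05 (5.64%) and a lowest adjusted p of 0.440. The mid and late differences were compared directly, and 0 features were called (0%), with 875 at an unadjusted p under 0.05 (4.66%) and a lowest adjusted p of 0.975. The lowest p-values in that comparison included GBP1, an interferon-induced GTPase, with 0.47 in mid and -1.10 in late scar, and IFIT1, another interferon-induced gene, at 0.05 and -1.07. Of 34 interferon response genes, 18 were higher under pressure in mid scar and 2 in late scar, with medians of 0.04 and -0.57. Averaged over the list, the late pairs differed by -1.06 and -0.88 in animal 49 (hyper and hypo) and by -0.25 and -0.13 in animal 50. Right minus left early sham scar had a median of -0.22 for that list. BMPR2 differed by -0.76 and EDARADD by -1.40 between mid and late scar, and neither was called (adjusted p = 0.975 for both).

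Side alone was measured in early scar, where sham lay on both sides. Right minus left gave 0 calls among 18763 features by limma (0%), with 243 at an unadjusted p under 0.05 (1.30%). Mid pressure minus sham had 852 (4.54%). The side comparison was a separate fit of the same values, with the early and control groups split by side. The order turned with a pair block, 381 for side and 301 for mid, and with the compared arrays alone, 546 and 382, and the difference between these counts was not tested. The medians between right and left were 0.07 for adipocyte genes, -0.59 for skeletal muscle genes and 0.47 for keratinocyte genes. Early scar was another phase than mid scar, so these values bear on side only in that phase.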

How the data were processed

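RNA of each biopsy was hybridised in Cy5 against universal pig reference RNA in Cy3 on 28 Agilent arrays on 7 slides. Per the file headers, the deposited scanner files hold spot intensity for both channels and a log10 ratio of red over green, and Agilent Feature Extraction 10.7.1.1 is named in the submitters' processing notes. The authors' deposited value table is on the log2 scale and equalled the log2 of the processed ratio within 0.001 for 99.97% to 99.99% of probes per array.

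Median intensities were background-corrected by normexp (offset 50) and loess-normalised within arrays with limma 3.58.1 in R 4.3.3. Local background values above the 99th percentile of their array and channel were set to that percentile, a departure from the usual correction, since negative-control Cy5 signals reached 2327 without the cap, and 67.1 to 74.9 with it. Outlier spots were dropped (0.532% of values missing). Of 43603 probes, 24513 were well above background in Cy5 on at least 4 arrays. They gave 18774 features (the probe of highest mean Cy5 per gene), 2606 named through RefSeq transcript accessions of 5636 probes, and 5 could not be tested. limma fitted 11 group means with the animal as a block over all 28 arrays, Benjamini-Hochberg adjustment over all features and a threshold of 0.05. The side comparison was fitted separately, with the early and control groups split by side. A fold given as "at least" sets the mean normalised Cy5 signal of the brighter group against the higher of the dim probe and the lowest signal counted as above background. List means are mean deviations from each gene's 28-array mean. The fit was run on simulated data with independent normal noise around each feature's mean and planted differences between mid pressure and the rest. The simulation held no slide effects and no biopsies of unequal tissue make-up, so it does not bear on those.

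The members and gene lists were chosen with earlier results of these data known. Genes were named by rule: the 10 of lowest p in each direction with the same sign in all 4 pairs, the 10 largest differences in each direction without overlap, up to 4 genes of lowest p in each list, and the 5 of lowest p in each direction of hyper minus hypo and of mid minus late. Pairs come from the labels (same animal and pigmentation). Deviations from the mean of all mid pressure or all mid sham biopsies correlated within pairs at 0.28, -0.54, -0.28 and -0.26. Hyper and hypo scar were pooled in these means, so the correlations also hold the differences between them. Alternatives were no block, a pair block, the compared arrays only, slide as a random or fixed block, no cap, the value table, scale normalisation, other filters and leaving out each mid array, or each early array for the side comparison; no late or control array was left out. Where a single mid biopsy was left out, its matched partner stayed in the fit, so such values are not those of whole pairs left out. The number of arrays limits the precision. A few genes that the rule names are not reported here.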

Additional observations from a re-analysis of the deposited data

Results flagged for a closer look

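In 16 of 280 groups of 4 biopsies (5.71%) 1 biopsy stood far from the other 3, where chance gives about 1 in 20, and 5 of these were the pressure hyper biopsy of animal 49. That biopsy was the high one for PKIA (2.02), CASQ1 (4.45), OCA2 (0.26) and the oxidative phosphorylation list mean (0.50), and the low one for COL1A2 (4.37). OCA2 was not well above background on any mid array, so its value says nothing about that biopsy. The pressure hyper biopsy of animal 50 was far below the other pressure biopsies for APCS (-6.06) and LMO1 (-0.32). The pressure hypo biopsy of animal 49 was far above them for CCL20 (2.68) and IL6 (0.58), and that of animal 50 far from them for UBE2W (-0.48). Among sham biopsies, the hyper biopsy of animal 49 stood apart for FASN (0.75), DDIT4 (-0.023) and LTF (3.42). The sham hypo biopsy of animal 49 stood apart for ARID4A (0.37) and for the list means of interferon response (0.16) and oxidative phosphorylation (0.15).

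Pressure minus sham was called as different between hyper and hypo scar for 215 features by the limma test of that difference. The count was 0 with a pair block, with the mid arrays alone, without the background cap and in the authors' value table. Side and treatment cannot be told apart here either. The named ones were PHGDH (-2.73, with 1 sham hypo biopsy measured), DEFB1 (-1.90), MUT (-2.40), MALL (-1.97), KIF21A (-2.29), ARL6IP5 (1.80), VPS37B (1.89), ARMT1 (1.34), GADD45A (2.16) and GFPT1 (1.08), each the log2 effect in hyper minus that in hypo.

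For 4 lists both hyper pairs moved one way and both hypo pairs the other, a difference that was not tested. Their hyper medians were -0.26 for integrins, -1.34 for keratinocyte, -1.06 for sweat and apocrine gland and -0.32 for cytosolic ribosomal protein genes. The sebaceous and lipid synthesis list had mid pairs all opposite to the late pairs, with a mid median of 0.043, and this was not tested either.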

How the results depend on the processing

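The 0 calls of mid pressure minus sham were 0 under every alternative that kept all 8 mid arrays, and 0 to 7 without single biopsies. With a replicate block by pairs the hyper and the hyper minus hypo comparisons gave 0 calls each, and 271 and 173 without the animal block. With only the mid arrays, and without the background cap, both also gave 0. For hyper against 315, and hyper minus hypo against 215, the counts were 547 and 461 with slide as a random block, 1410 and 1178 as a fixed block, 696 and 479 with scale normalisation, 114 and 31 with no filter, 371 and 342 with at least 12 arrays above background, and 46 and 0 from the value table, which gave 5 in late scar. Without single biopsies they ran from 6 to 1305 and from 0 to 1819, hypo from 0 to 3, mid minus late from 0 to 5 (mid biopsies left out only) and early right minus left from 0 to 6. Without the 2 biopsies high in macrophage genes, chosen after seeing the data, mid gave 2, hyper 7, hypo 3 and hyper minus hypo 0. Of the named-gene results, 1985 kept direction and side of the threshold, 359 lost the call, 11 gained one and 19 reversed. Genes named in the mid comparison were not called to begin with, so for them staying uncalled says little. The 359 lost calls can only be of genes that were called, and the counts were not split by comparison. Reversed without the cap were MLPH (0.0028), TYR (0.072), TYRP1 (0.13), TEAD1 (-0.017) and ANGPT2 (-0.045), and in the value table TYR (0.029) and CNN1 (-0.016). Without single mid biopsies, genes that reversed ranged as follows. FST ran from -0.0080 and TPM1 from -0.45 without the pressure hyper biopsy of animal 49 to 0.57 and 1.95. DCT reached 0.053, CD163 -0.061 and TIMP1 -0.11 without the pressure hyper biopsy of animal 50, with the other ends at -0.62, 1.37 and 0.72. CCL20 reached -0.087 and ITGB1 -0.021 without the pressure hypo biopsy of animal 49, with the other ends at 1.46 and 0.44. LTF in hyper scar ranged from -3.66 to 0.010, the upper end without the sham hyper biopsy of animal 49. SELE ranged from -1.10 to 0.036, the upper end without the sham hypo biopsy of animal 49. Without the 2 macrophage-rich biopsies DCT (0.034), TYRP1 (0.037) and SELE (0.19) reversed. The cause of these shifts was not tested.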

Other observations

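The remaining lists had no gene called by limma between pressed and sham mid scar. Of 26 oxidative phosphorylation genes, 18 were higher in pressed scar with a median of 0.10, and the hyper pair of animal 49 differed by 0.59 on average. Of 17 sebaceous and lipid synthesis genes, 10 were higher with a median of 0.04. Of 14 neutrophil genes, 5 were higher with a median of -0.04, while the hyper pair of animal 50 differed by 0.95 and the hypo pair of animal 49 by -1.14, the pairs that hold the 2 biopsies high in macrophage genes. Of 6 Schwann cell and nerve genes, 3 were higher with a median of -0.04, and of 8 genes of signals that act on melanocytes 2 were higher with a median of -0.01. All 3 measured B and plasma cell genes and all 3 mast cell genes were higher, with medians of 0.18 and 0.07. None of 15 red blood cell genes was measured under its symbol (0 of 15).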
